A study of Mus musculus with 16 samples.

Results

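A set of 10 genes of the cytotoxic granule was followed in the lungs of Fra-2 transgenic mice. They were the granzymes Gzma, Gzmb, Gzmc, Gzmk and Gzmm, the pore former Prf1, the granule membrane protein Nkg7, the death ligand Fasl, the granule proteoglycan Srgn and the granzyme B inhibitor Serpinb9. They were chosen by name, and all array features annotated to them were taken. This gave 10 of 24306 genes and 14 of 62976 features: Srgn had 3 features, Gzmk and Gzmm had 2 each, and the other genes had 1. Where a gene had several features, the one with the highest mean over the 16 arrays stood for it and the others were read beside it.

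Lung RNA came from Fra-2 TG mice, which overexpress the AP-1 transcription factor Fra-2 (gene Fosl2), and from WT littermates, all aged 8 weeks. There were 4 TG females, 4 TG males, 4 WT females and 4 WT males, with 1 single-colour Agilent array per sample. The line began on a mixed BL6CBA background and was back-crossed to C57BL6/J, and the sources used here do not name the promoter that drives the transgene. The RNA was from homogenised right lung, so each value is an average over all cells of the tissue, and a smaller number of cells of a type and less RNA per cell cannot be told apart. Animals are not identified in the labels, so every array was taken to be a separate mouse.

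Cytotoxic lymphocytes, chiefly NK cells and CD8 T cells, kill by releasing granules onto a target cell. Perforin inserts pores into the target membrane and granzymes, a family of serine proteases, enter through them and cleave proteins in the target cell. Inside the granule the granzymes are held on the proteoglycan serglycin (Srgn), and the killer cell is shielded from its own granzyme B by the cytosolic serpin Serpinb9. FasL works beside the granules, by engaging the death receptor Fas on the target. In mice the granzyme genes lie in 3 places: Gzma and Gzmk are direct neighbours on chromosome 13, Gzmb and Gzmc are direct neighbours on chromosome 14, and Gzmm is on chromosome 10.

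Because the overexpressed protein is an AP-1 factor, the sequences before the start sites of the members were searched for the AP-1 motif TGAGTCA and for motifs of factors known in lymphocytes or related to AP-1. All 10 members had RefSeq promoter windows (GRCm38.p6), 12 windows in all, each with 250 bases before and 50 bases after the start. Both strands were read for TGAGTCA (AP-1), TTACGTAA (NFIL3), AGGTGTGA (T-box), TGTGGTTT (RUNX), TGACGTCA (CRE) and ACAGGAAG (ETS). Of the members, 4 held 1 match each, and their 150 bases before the start are shown 5′ to 3′ on the strand of the gene, with the match in capitals. The stretches were chr13:113100982-113101131 (minus strand) for Gzma, chr14:56262335-56262484 (minus) for Gzmb, chr14:56234658-56234807 (minus) for Gzmc and chr7:43436988-43437137 (plus) for Nkg7. The stretch of Gzmc lies inside the annotated span of the gene (56231397 to 56241647), so the start site used for it is an internal one.
Gzma: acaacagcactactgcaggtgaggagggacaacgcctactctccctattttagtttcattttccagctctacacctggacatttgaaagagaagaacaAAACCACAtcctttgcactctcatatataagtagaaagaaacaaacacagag
Gzmb: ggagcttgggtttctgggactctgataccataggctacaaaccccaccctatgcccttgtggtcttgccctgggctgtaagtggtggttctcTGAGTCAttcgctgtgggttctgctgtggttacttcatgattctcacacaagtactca
Gzmc: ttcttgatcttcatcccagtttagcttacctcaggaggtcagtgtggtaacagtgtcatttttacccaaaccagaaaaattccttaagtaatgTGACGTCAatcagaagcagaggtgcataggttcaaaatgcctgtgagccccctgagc
Nkg7: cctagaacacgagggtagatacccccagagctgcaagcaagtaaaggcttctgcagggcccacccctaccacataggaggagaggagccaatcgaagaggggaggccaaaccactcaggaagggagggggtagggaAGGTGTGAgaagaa
The capitals mark the RUNX motif on the opposite strand in Gzma, the AP-1 motif in Gzmb, the palindromic CRE motif in Gzmc and the T-box motif in Nkg7. The first bases of these matches lay at -52, -58, -57 and -14, counted back from the start site. Over 32851 promoter windows of the same length, 5.2% held the AP-1 letters, 1.78% the RUNX letters, 1.79% the CRE letters and 1.28% the T-box letters. The NFIL3 letters (0.119% of windows) and the ETS letters (3.58%) were in none of the 12 windows. Gzmk, Gzmm, Prf1, Fasl, Srgn and Serpinb9 held no match to any of the 6. The only windows of Prf1 and Serpinb9 also had a start site inside the annotated span of the gene, as did a further window each of Gzmm and Srgn. A match is a description of the letters and not a binding site.

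The arrays were alike, with correlations between 0.954 and 0.989 for any pair. TG female 1 and TG female 4 correlated least with the rest (mean r 0.963 and 0.967), and these with WT male 1 (0.975) were left out together as a check. A feature of Fosl2 that was dim in WT mice was higher in TG mice, at 6.56 to 10.66 in TG and 2.39 to 4.91 in WT mice on the log2 scale. Another feature of Fosl2 did not show this, at 8.71 to 10.06 in TG and 8.90 to 10.38 in WT mice. The sources used here do not say which of them reads RNA of the transgene. Averaged over the 8 lung epithelium markers, the level per mouse was 13.63 to 13.93 in TG and 13.67 to 13.89 in WT mice. The markers differed widely in level, and Cldn18 averaged only 8.85 in TG and 8.98 in WT mice. Some of these probes sat at the top of the scale, such as Scgb1a1 at 15.99 in TG and 15.98 in WT mice (picked after its values were seen), so their test between genotypes says little. The deposited table holds no flag for dim spots. A set of 1429 features of olfactory and vomeronasal receptors, genes not known to be used in lung, served as a gauge. The 95th percentile of these features on each array (4.51 to 5.17) is called the background level. Over all 24306 genes, 7.08% were called lower and 6.05% higher in TG lungs by limma, at a Benjamini-Hochberg adjusted p under 0.05.

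Of the 10 members, 7 were lower in TG lungs and 0 were higher, against the 7.08% of all genes that were lower. At an unadjusted p under 0.05 the members counted 8 lower and 1 higher, against 15.9% and 12.2% of all genes. The median log2 fold change of the 10 was -1.13, and that of all genes was -0.03. In Gzma, Gzmb, Prf1, Nkg7 and Fasl all 8 TG mice lay below all 8 WT mice, a pattern seen in 0.893% of all genes. Over all features, 7 of the 14 member features were lower, against 3.96% of the array, and 0 were higher, against 4.85% (adjusted over 62976 features). These were not features of the same 7 genes. The feature of Serpinb9 did not pass there (adjusted p = 0.0689, limma), while the dimmer feature of Gzmm did (adjusted p = 0.0442).

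**Figure D1:**
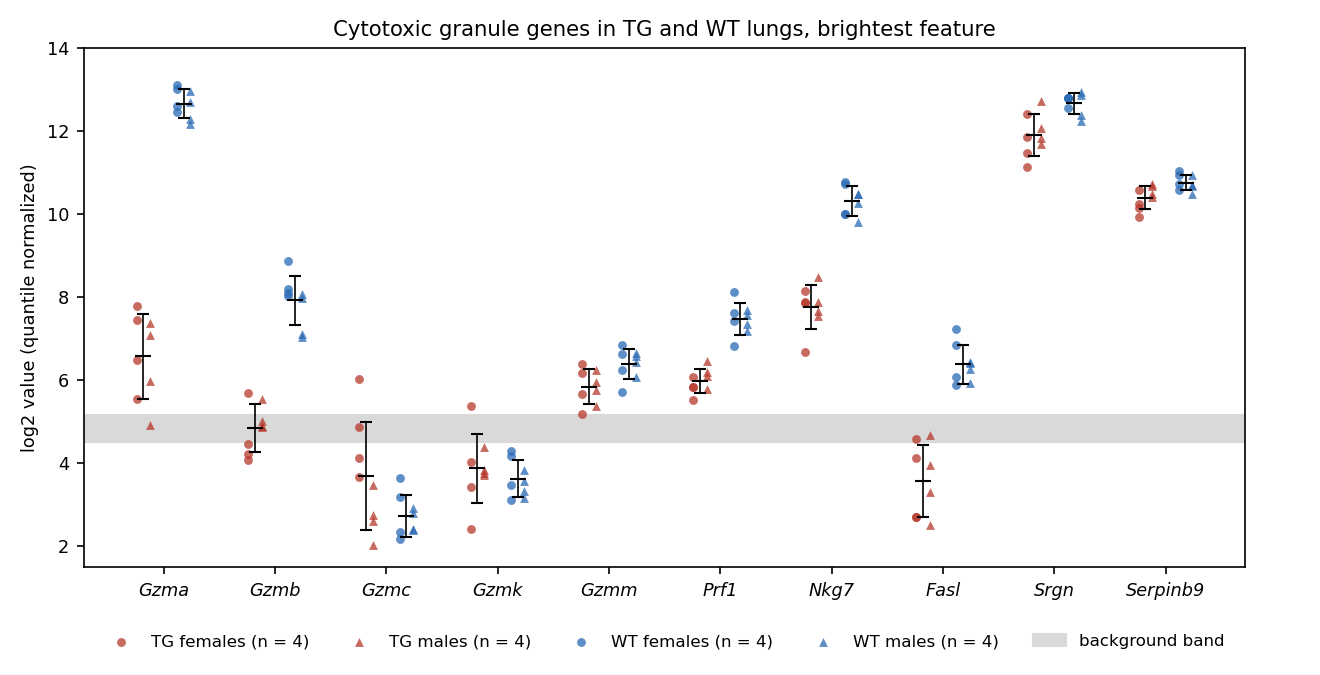
Log2 value (vertical axis) of the brightest feature of each of the 10 members in every mouse, TG left of WT, with females as circles, males as triangles and bars for the mean ± SD of each genotype (n = 8). The grey band is the range of the background level over the arrays. The 8 TG mice sit below the 8 WT mice in Gzma, Gzmb, Prf1, Nkg7 and Fasl, while the genotypes overlap in Gzmc, Gzmk, Gzmm, Srgn and Serpinb9.

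Gzma encodes granzyme A, a protease that cuts after basic residues, and its measured fall in TG lungs was the largest of the 24306 genes. Genes at or below the background level in TG mice may have fallen further than measured, so the rank holds for measured values only. Its log2 values were 7.46, 6.49, 7.78 and 5.54 in TG females and 4.92, 7.37, 5.98 and 7.09 in TG males, against 13.00, 13.10, 12.61 and 12.47 in WT females and 12.29, 12.70, 12.96 and 12.18 in WT males. The genotypes were far apart, and the TG mice were also more scattered than the WT mice. The means were 6.58 ± 1.02 in TG and 12.67 ± 0.34 in WT lungs (SD, n = 8 each), a log2 fold change of -6.09 (SE 0.36, 95% interval -6.86 to -5.32, adjusted p = 1.71e-07, limma) or a 68.0-fold lower level. The change was -5.98 in females and -6.19 in males. Of the 8 TG mice, 7 were still above the background level.

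Gzmb encodes granzyme B, which cuts after aspartate and activates caspases. Its log2 values were 4.22, 4.08, 5.70 and 4.46 in TG females and 4.88, 5.56, 4.90 and 5.03 in TG males, against 8.86, 8.11, 8.02 and 8.20 in WT females and 7.12, 7.99, 8.07 and 7.04 in WT males. No TG mouse reached the lowest WT mouse. The log2 fold change was -3.07 (SE 0.24, adjusted p = 2.38e-06, limma), an 8.41-fold difference and number 13 among the falls of all genes. Only 4 of the 8 TG mice were above the background level, and with TG values raised to that level where they lay under it the difference was still 6.79-fold. In females the change was -3.68 and in males -2.46.

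Gzmc is a rodent granzyme that lies next to Gzmb, and its signal was too low in WT mice to show a fall like that of its neighbour. Its log2 values were 4.14, 3.67, 6.04 and 4.87 in TG females and 2.04, 3.49, 2.61 and 2.76 in TG males, against 2.17, 2.34, 3.64 and 3.20 in WT females and 2.41, 2.92, 2.39 and 2.80 in WT males. All 4 TG females lay above all 4 WT females, by a narrow gap, while the males overlapped. Over both sexes the log2 fold change was 0.97 (SE 0.32, 95% interval 0.28 to 1.65, adjusted p = 0.0599, limma), and the call was not made. The change passed the test in females (1.84, adjusted p = 0.0153) and not in males (0.10, adjusted p = 0.974), but the difference between the sexes, 1.74 on the log2 scale, had an adjusted p of 0.331. The feature was dim: only 1 of 8 TG mice and 0 of 8 WT mice were above the background level, and with females fitted alone the adjusted p was 0.0627. It passed over both sexes, as higher, without TG female 2 (adjusted p = 0.0278) or without WT female 3 (adjusted p = 0.0427).

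Gzmk encodes granzyme K, a tryptase like granzyme A, next to whose gene it lies. Its brighter feature was at 2.42, 3.81 and 5.38 in TG and 3.13, 3.53 and 4.31 in WT mice (lowest, median and highest log2 value). The genotypes overlapped fully, with 1 TG mouse and 0 WT mice above the background level. The log2 fold change was 0.25 (SE 0.33, 95% interval -0.45 to 0.95, adjusted p = 0.666, limma). The other feature gave 0.03 (adjusted p = 0.968 over all features), with no mouse of either genotype above the background level. At this signal a fall of Gzmk could not have been detected.

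Gzmm encodes granzyme M, which cuts after methionine and leucine. Its brighter feature was at 5.19, 5.87 and 6.39 in TG and 5.71, 6.51 and 6.84 in WT mice (lowest, median and highest log2 value), all above the background level, and the genotypes overlapped. The log2 fold change was -0.55 (SE 0.20, 95% interval -0.98 to -0.11, adjusted p = 0.0900, limma), so the call was not made. The other feature averaged 4.24 ± 0.47 in TG and 4.92 ± 0.48 in WT mice (SD, n = 8 each), with 0 of 8 TG and 5 of 8 WT mice above the background level, and it passed the test over all features (-0.68, adjusted p = 0.0442). With the mean of both features Gzmm also passed (-0.61, adjusted p = 0.0313), as did the brighter feature without TG female 3 (-0.64, adjusted p = 0.0434) or without WT female 3 (-0.66, adjusted p = 0.0447).

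**Figure D2:**
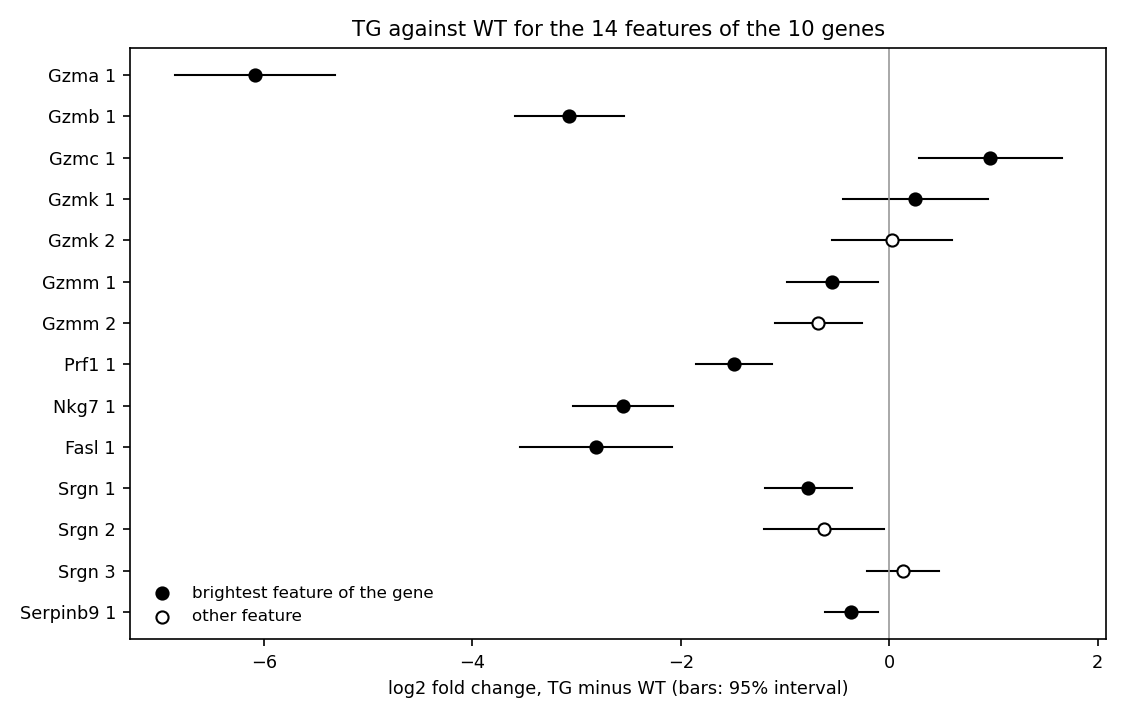
Log2 fold change of TG over WT (horizontal axis, with 95% interval) for each of the 14 features of the 10 members (filled for the brightest feature of a gene), in the limma fit over all 62976 features. The features run from Gzma at -6.09 to Gzmc at 0.97, and the 3 features of Srgn lie at -0.77, -0.63 and 0.13.

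Prf1 and Nkg7, which act in the release and delivery of granules, were both lower in TG lungs. Prf1, perforin, had log2 values of 5.53, 5.96 and 6.48 in TG and 6.83, 7.51 and 8.12 in WT mice (lowest, median and highest). Nkg7, a granule membrane protein needed for degranulation, had log2 values of 6.67, 7.87 and 8.49 in TG and 9.82, 10.37 and 10.78 in WT mice. For neither gene did the genotypes overlap, and every mouse was above the background level. The log2 fold change of Prf1 was -1.49 (SE 0.17, adjusted p = 9.48e-05, limma), a 2.81-fold difference, and it was -1.67 in females and -1.31 in males. That of Nkg7 was -2.55 (SE 0.22, adjusted p = 6.10e-06), a 5.88-fold difference, and it was -2.74 in females and -2.37 in males. The lowest TG mouse for both was TG female 4, one of the arrays that correlated least with the others.

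Fasl, the ligand of the death receptor Fas, was at log2 values of 2.52, 3.63 and 4.67 in TG and 5.88, 6.35 and 7.24 in WT mice (lowest, median and highest). The genotypes were separate, and 0 of 8 TG mice but all 8 WT mice were above the background level. The log2 fold change was -2.82 (SE 0.34, adjusted p = 0.000203, limma). With the background level as a floor under the TG mice, Fasl was at least 2.80-fold lower in TG lungs. The measured change was -2.98 in females and -2.66 in males.

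Srgn and Serpinb9, which are widely used outside cytotoxic cells, had the smallest changes of the 7 members called. Srgn, which many blood cells make, had log2 values on its bright feature of 11.15, 11.84 and 12.72 in TG and 12.24, 12.80 and 12.95 in WT mice (lowest, median and highest). TG male 2 and TG female 3 reached into the WT range, so the genotypes overlapped. The log2 fold change was -0.77 (SE 0.19, adjusted p = 0.0173, limma). The other features of Srgn gave -0.63 (adjusted p = 0.165 over all features) and 0.13 (adjusted p = 0.681 over all features), and the mean of the 3 did not pass (-0.42, adjusted p = 0.0831). Without TG female 1, TG female 4 and WT male 1, the bright feature was at -0.61 with an adjusted p of 0.0677.

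Serpinb9 had log2 values of 9.93, 10.45 and 10.72 in TG and 10.49, 10.71 and 11.03 in WT mice (lowest, median and highest), with overlap. Its log2 fold change was -0.36 (SE 0.11, adjusted p = 0.0472, limma), a 1.29-fold difference close to the threshold. It was -0.60 in females (adjusted p = 0.0225) and -0.13 in males (adjusted p = 0.855). The call was lost in 22 of 31 alternatives, with adjusted p-values up to 0.817. Among single mice it was lost on leaving out any one other than TG female 3, WT female 1 and WT male 4, with adjusted p-values up to 0.0945.

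Within the sexes, 8 members passed the test in females, 7 of them lower and 1 (Gzmc) higher in TG mice, against 16.1% of all genes called in either direction. In males 5 passed, Gzma, Gzmb, Prf1, Nkg7 and Fasl, all lower in TG mice, against 0.646% of all genes. The change in females minus that in males passed the test for 0 members and 0 genes (limma). At an unadjusted p under 0.05 it was reached by 2 members, Gzmb (-1.22, adjusted p = 0.332) and Gzmc (1.74, adjusted p = 0.331), and by 12.9% of all genes. The remaining differences between the sexes had 95% intervals that included 0, such as -1.33 to 1.75 for Gzma.

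To ask which members follow Gzma, each gene was taken minus Gzma within every mouse and the difference compared between TG and WT lungs. This could be read for the members measured above the background level in both genotypes. The difference in log2 change was 3.53 for Nkg7 (95% interval 2.96 to 4.10), 4.60 for Prf1 (3.75 to 5.44), 5.31 for Srgn (4.51 to 6.11), 5.54 for the brighter feature of Gzmm (4.79 to 6.29) and 5.72 for Serpinb9 (4.88 to 6.57), so that all 5 fell less than Gzma or did not pass the test of a fall. Each had an exact two-sided permutation p of 0.000155, the smallest that 8 against 8 mice allow. All 9 members other than Gzma had this p, also those that cannot be read here, so it says little about any single member. Gzmb had a difference of 3.01 (2.28 to 3.75), with 4 of its 8 TG mice at or below the background level. For Fasl the TG mice were at the floor, so that its fall is a lower bound and the difference from Gzma is not defined. Gzmk and Gzmc were at the floor in WT mice already and could not have shown a fall, so whether they follow Gzma cannot be read here. In the limma fit 24304 of 24305 genes (100%) differed from Gzma, so the call says little about the members. The exception was Klra8, with a difference of 0.86 (adjusted p = 0.0582, limma). Of the granzymes, Gzma and Gzmb passed the test and did not overlap between genotypes, while the brighter feature of Gzmm did not pass.

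The genes whose profile over the 16 arrays lay nearest to that of Gzma included receptors of NK cells. The measure was the root mean square difference of log2 values, each gene relative to its own WT mean, which mostly follows the size of the fall. The nearest were Klra8 (1.09), Klrb1c (1.52), Klra23 (1.52), Klra4 (1.58) and Klra7 (1.92), with log2 fold changes of -5.22, -4.16, -4.31, -3.96 and -3.49. Klra8 and Klrb1c averaged 3.69 and 3.63 in TG mice, below the background level, so their falls are lower bounds. Klra23 averaged 4.69 in TG mice, within the range of the background level over the arrays, so its fall may be limited too. The order of the nearest genes is partly set by the floor. The Ly49 genes (Klra) are close copies, so a probe may read more than 1 of them. Of the members, Gzmb came at rank 9 (2.24), Fasl at 11 (2.35) and Nkg7 at 16 (2.55).

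Co-variation was read within each genotype alone, over 8 mice, since the genotypes form separate clusters of Gzma. In TG mice Gzma went most closely with Fasl (Pearson r 0.85, exact permutation p = 0.0135; Spearman rho 0.81, p = 0.0218) and Nkg7 (r 0.69, p = 0.0476; rho 0.71, p = 0.0576). Without the 2 mice farthest from the median of Gzma, TG male 1 and TG female 4, r was 0.70 for both. In WT mice it went most closely with Nkg7 (r 0.81, exact permutation p = 0.0194; rho 0.81, p = 0.0218) and Gzmb (r 0.79, p = 0.0198; rho 0.69, p = 0.0694). Without WT male 4 and WT female 2, these were 0.93 and 0.78.

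None of the 18 relations passed after adjustment, where the smallest adjusted p was 0.119 for r and 0.196 for rho. At an unadjusted exact permutation p under 0.05 there were 4 by r and 2 by rho. Taken as deviations from the mean of each group of genotype and sex, r was 0.89 for Fasl and 0.80 for Nkg7 in TG mice, and 0.83 for Nkg7 and 0.76 for Gzmb in WT mice. Gzmb in TG mice had an r of 0.36, Prf1 an r of 0.03 in TG and 0.58 in WT mice, and Gzmk an r of -0.51 in TG and -0.35 in WT mice. For Serpinb9 in WT mice r was 0.15 over 8 mice and -0.90 without WT male 4 and WT female 2. In TG mice all 8 values of Fasl and 7 of Gzmc lay at or below the background level, where the order of mice is poorly measured. The same holds for Gzmk, with only 1 TG mouse and 0 WT mice above that level, so its negative r cannot be read. For Gzmb it holds in part, with 4 of 8 TG mice above that level.

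**Figure D3:**
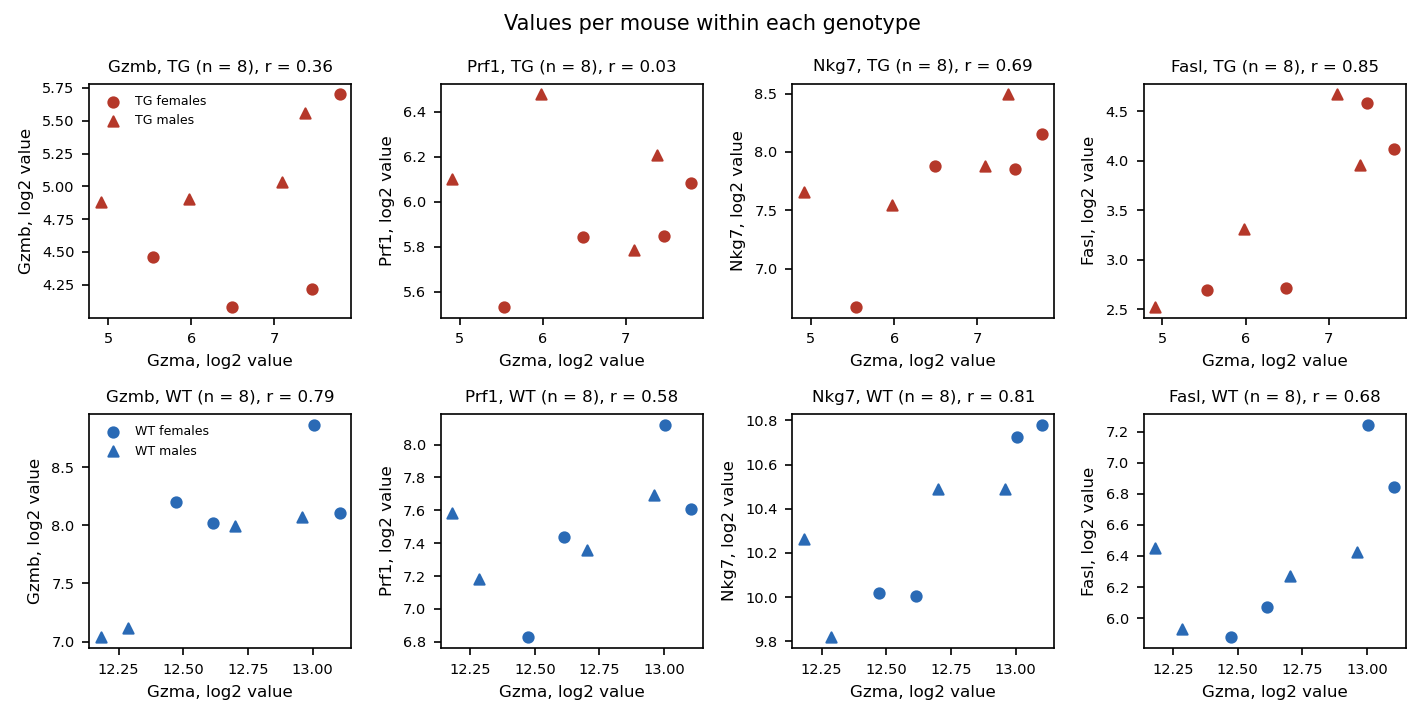
Log2 value of Gzmb, Prf1, Nkg7 and Fasl (vertical axes) against that of Gzma (horizontal axis) in each mouse, drawn apart for TG mice (upper panels) and WT mice (lower panels), 8 points per genotype. TG mice spread over Gzma values of 4.92 to 7.78 and WT mice over 12.18 to 13.10, and no correlation was taken over both.

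Other genes of the granule pathway were read from lists. Of 18 measured genes of granule maturation and release, 7 were lower and 1 higher, and 10 failed the test, with a median log2 fold change of -0.24. Ctsw, a protease found mostly in NK and CD8 T cells, was at 5.98 ± 0.36 in TG and 7.82 ± 0.26 in WT mice (SD, n = 8 each), without overlap (-1.84, adjusted p = 1.38e-06, limma). Stx11, a membrane fusion protein of granule release, changed by -0.69 (adjusted p = 0.0123), and Ctsc, the peptidase that activates granzymes, by -0.65 (adjusted p = 0.0201). Stxbp2, the partner of Stx11, changed by -0.33 (adjusted p = 0.0269). Of the 5 measured granzymes outside the members, 0 were lower and 1, Gzme, was higher (0.75, adjusted p = 0.0415), on dim features. Of 14 measured inhibitors and death pathway genes, 3 were lower and 11 did not pass: the cytokine Ifng changed by -1.67 (adjusted p = 0.00336), the serpin Serpinb6b by -0.73 (adjusted p = 0.00614) and the caspase target Bid by -0.54 (adjusted p = 0.0480). Ifng was dim, at a mean of 3.55 in TG mice and at 3.91 to 6.04 in WT mice, so the size of its fall is limited by the floor.

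Markers of the cells that carry these genes were read beside them. Of 10 NK cell and ILC1 markers 7 were lower and 1 higher, with a median log2 fold change of -2.33. Their mean level was 4.90 to 5.60 in TG and 6.96 to 7.63 in WT mice, without overlap. The higher marker was Itga2 (0.59, adjusted p = 0.0248, limma). Eomes (-0.98, adjusted p = 0.0706) and Cd244a (0.18, adjusted p = 0.318) did not pass. Ncr1, the defining NK receptor, was at log2 values of 2.28, 2.97 and 3.66 in TG and 5.90, 6.0 and 6.65 in WT mice (lowest, median and highest), so that all TG mice were below the background level. Of 9 measured T cell markers 1 was lower, Cd8a (-0.78, adjusted p = 0.00981, limma), and 8 did not pass, with a mean level of 7.91 to 8.79 in TG and 8.24 to 8.75 in WT mice. Cd3e, a subunit of the T cell receptor complex, differed by 0.44 on the log2 scale (adjusted p = 0.0567). The part of these cells in the changes of the members was not tested.

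Markers of further cell types were also read. Mast cells, which store Srgn, showed 3 of 8 markers lower and 1 higher, with a mean level of 4.97 to 6.02 in TG and 5.73 to 6.81 in WT mice. Cma1, a mast cell chymase, changed by -1.93 (adjusted p = 2.19e-05, limma), and Cpa3, the mast cell carboxypeptidase, by -1.88 (adjusted p = 0.00441). Cpa3 averaged 3.68 in TG mice, below the background level, so the size of its fall is limited by the floor. Tpsb2 was the marker that was higher (0.97, adjusted p = 0.0311, limma), at 8.66 in TG and 7.68 in WT mice. Of 8 neutrophil markers 4 were lower, with a mean level of 6.95 to 9.69 in TG and 8.66 to 9.60 in WT mice. Of 8 macrophage markers 5 were lower, with a mean level of 9.32 to 10.06 in TG and 9.74 to 10.89 in WT mice. Of 4 basophil markers 1 was higher, and of 6 endothelium markers 2 were higher, while all 5 platelet markers failed the test. Their part in the lower Srgn and Serpinb9 was not tested.

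**Figure D4:**
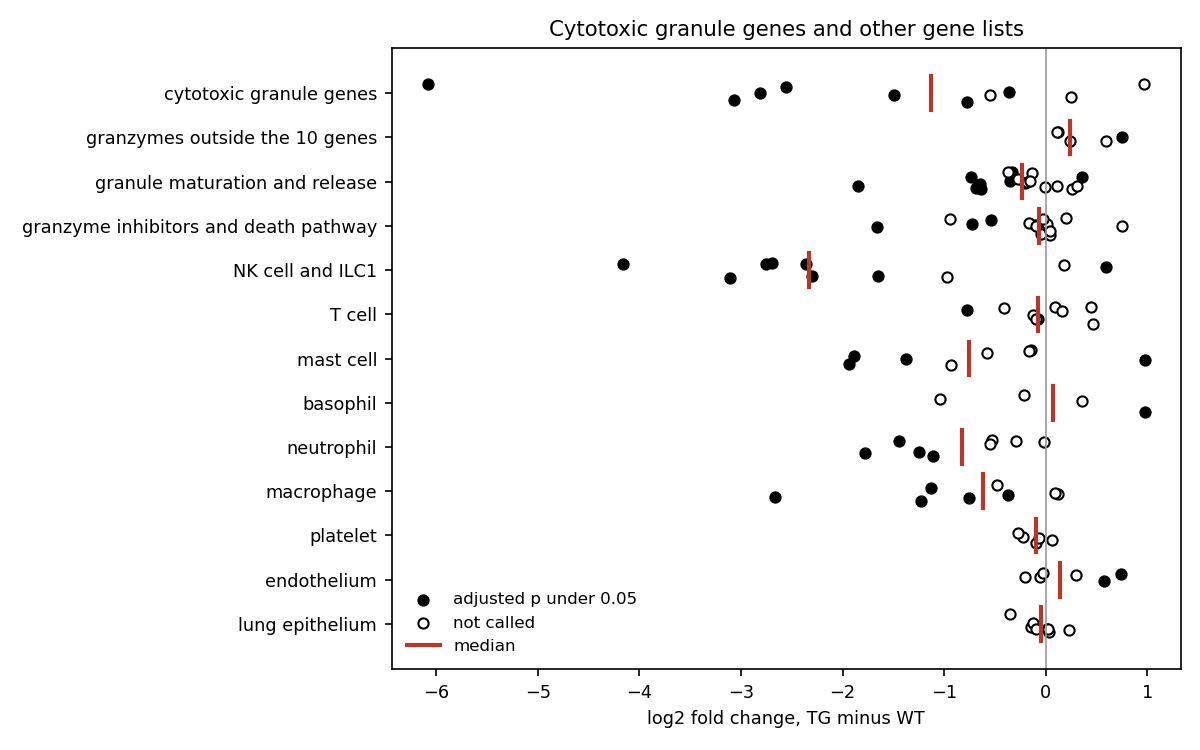
Log2 fold change of TG over WT (horizontal axis) of every measured gene in each list, 1 point per gene, filled where it passed the test, with the median of each list as a red line. The 10 members have a median of -1.13 and the NK cell and ILC1 markers of -2.33, against -0.07 for the T cell markers and -0.04 for lung epithelium. The medians of the neutrophil, mast cell and macrophage markers lie between, at -0.83, -0.76 and -0.62.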

How the data were processed

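The labels gave genotype, sex and replicate number, with 4 mice per group of genotype and sex. The authors used limma for background correction and quantile normalization, and deposited log2 values with 1 column per array and no flags. The sources used here do not give the background method, filters or limma version. The labels name Cy3 and the paper's methods Cy5. All columns of values were used. Symbols came from the platform annotation, updated through RefSeq (GRCm38.p6): 43941 features had 1 symbol and 0 had several, and 19035 with none stayed out of the gene fit.

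Group means of the 4 groups were fitted with limma (version 3.58.1, R 4.3.3; lmFit, contrasts.fit, eBayes) and contrasted as TG minus WT. Genes were called at a Benjamini-Hochberg adjusted p under 0.05 over the 24306 genes, or over all 62976 features where stated. The same fit gave each sex and their difference. Differences to Gzma have ordinary 95% intervals, a choice made after seeing the data because the moderated fit gave all genes nearly the same standard error. Correlations of deviations from group means were likewise added after seeing the data. Permutation tests were exact and two-sided. The labels do not say what separates the replicates of a group, so p-values measure the spread between these samples. The number of arrays limits the precision. The fit was tested on simulated data. Python 3.11.15 with matplotlib 3.10.9 drew the figures.

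Members and gene lists were chosen with earlier results of these data known. Named genes were the members, the 4 genes of smallest adjusted p in each list (not all are described), the defining markers Ncr1, Cd3e, Cd8a and Cpa3, and the 5 genes nearest to Gzma. Itga2, Eomes and Cd244a were added after their values were seen, as the NK cell and ILC1 markers that were not called lower. Arl8b, Lck and some other listed genes were not analysed here. Alternatives covered covariates, the feature per gene, filters on dim genes, normalization, eBayes settings, array weights, the exact Wilcoxon test, thresholds, each sex alone and each mouse left out. Flow cytometry and chimera data were not analysed here.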

Additional observations from a re-analysis of the deposited data

Results flagged for a closer look

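In 11 of 132 groups of 8 mice checked, 1 mouse stood far from the others, with a gap to its nearest neighbour that was large against the whole range of the group; chance gives this in about 1 in 20 groups. Among the members it was found only for the dimmer feature of Gzmk in TG mice, where TG female 4 was at 4.97 and the next mouse at 3.65 (gap over range 0.610). In WT mice, WT male 1 stood alone in 8 genes of the lists: Mcpt8 (0.622), Cdh5 (0.559), Tek (0.558), Ctsc (0.586), Stxbp2 (0.548), Ifng (0.542), Napsa (0.702) and Cd8a (0.597). The others were Klra23 in WT mice, for WT female 2 (0.596), and Ager in WT mice, for WT female 1 (0.739). No member had a TG or WT mouse far from the others on its brightest feature.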

How the results depend on the processing

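The falls of Gzma, Gzmb, Prf1, Nkg7 and Fasl passed in every alternative that kept the gene, with log2 fold changes of -6.26 to -5.85, -3.68 to -2.46, -1.67 to -1.31, -2.74 to -2.37 and -2.99 to -2.64. The number of members lower in TG was 5 to 8 over the alternatives (6 to 8 on leaving out 1 mouse), and no call was reversed. The number higher in TG was 1 with the replicate block and 1 with trend and robust eBayes, Gzmc each time, and 0 to 1 on leaving out 1 mouse. All genes counted 1721 lower and 1471 higher, 476 and 550 at the threshold 0.01, 1027 and 974 in females alone, 50 and 39 in males alone, and 1067 to 2371 lower and 1007 to 1892 higher on leaving out 1 mouse (1067 without TG male 1, 1145 without WT female 1, 1132 without WT female 2, 1083 without WT male 3). The r between same-numbered mice was -0.11 to 0.17, with 3 of 24 pairs over 0.1. It was not set against r between differently numbered mice, so it cannot decide whether replicate numbers pair the mice. With the replicate block 6 members were lower (Serpinb9 lost, adjusted p = 0.0714), Gzmc was higher (adjusted p = 0.0487), no other member's call changed, and all genes counted 1676 lower and 1412 higher. Without TG female 1, TG female 4 and WT male 1, 5 members were lower. The difference of the 9 other members from Gzma was called in each of the 24 alternatives run for it, but it cannot be read for Gzmc, Gzmk and Fasl. Causes were not tested. Dim signal limits Gzmc and Gzmk on both sides and Gzmb and Fasl in TG mice.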
